A study of Homo sapiens with 12 samples.

Results

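The 10 genes described here mark squamous epithelial identity and differentiation, and were chosen by name from the deposited gene table: TP63, SOX2, ANXA1, IVL, S100A2, SFN, EVPL, PPL, TGM1 and SPRR1B. They are 10 of the 19771 protein-coding genes in that table, and every name was found once. RNA was sequenced from TE-1, an established line from a human oesophageal cancer, harvested 48 h after transfection. The 12 libraries form 4 groups of 3. OE_IFI6 received a vector that overexpresses IFI6, an interferon-inducible gene, and OE_control received the control of that vector. The group sh_IFI6 received an interference vector against IFI6, and sh_control received the interference control. All groups share the parental line, the serum-containing medium and the transfection. The labels state neither the contents of the control vectors nor whether each library had its own culture. The p-values therefore describe the spread among these libraries alone, and that spread may be technical.

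Squamous epithelium, such as the lining of the oesophagus, renews from a basal layer held by the transcription factors p63 and SOX2. Cells that leave this layer switch on scaffold and precursor proteins, among them envoplakin, periplakin, involucrin and small proline-rich proteins. Transglutaminases then cross-link these proteins beneath the plasma membrane into the cornified envelope. Annexin A1, S100A2 and 14-3-3 sigma are abundant in stratified epithelia, and their loss or gain has often been followed in oesophageal tumours.

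In these TE-1 libraries the basal regulators and the envelope precursors were at or near 0, while ANXA1 and SFN were abundant. Levels are FPKM, fragments scaled by transcript length and by the mapped total, so they can be compared between genes. Of the 10 genes, 5 (ANXA1, SFN, S100A2, PPL and EVPL) averaged 1 FPKM or more across all 12 libraries, the minimum for testing. TGM1 and TP63 lay below it, and SOX2, IVL and SPRR1B were listed at 0 in every library. A listed 0 does not by itself show an absent transcript, and 3697 protein-coding genes (18.7%) were at 0 in all 12. None of 39 housekeeping genes looked up was at 0 in any library. Their lowest value was 4.11 FPKM, so they cannot show how a scarce transcript would be listed. ANXA1 was lower in OE_IFI6, at 135.9 ± 31.7 FPKM, than in OE_control, at 248.4 ± 32.6 FPKM (SD, n = 3 each). With the interference vector it averaged 123 ± 13 FPKM in sh_IFI6 and 123 ± 4.04 FPKM in sh_control, a difference that did not pass the test. Against sh_control, OE_IFI6 did not pass the test either, whereas OE_control was higher (limma, log2 fold changes 0.12 and 1.0). The call against OE_control was lost when only the libraries of that pair were fitted.

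The 250 bases upstream of the transcription start are shown for 5 genes, because they pair the 3 most abundant members that have a promoter entry with the 2 envelope precursors listed at 0. They come from RefSeq on GRCh38.p14, and run 5′ to 3′ on the gene's own strand. Capitals mark 2 motifs: TGANTCA, the letters bound by the FOS and JUN dimer AP-1, a known activator of keratinocyte differentiation genes, and TATAAA, the TATA box. The windows are chr9:73151615-73151864 (plus strand) for ANXA1, chr1:26862899-26863148 (plus) for SFN and chr1:153565845-153566094 (minus) for S100A2. Those of the pair listed at 0 are chr1:152908296-152908545 (plus) for IVL and chr1:153030953-153031202 (plus) for SPRR1B.
ANXA1: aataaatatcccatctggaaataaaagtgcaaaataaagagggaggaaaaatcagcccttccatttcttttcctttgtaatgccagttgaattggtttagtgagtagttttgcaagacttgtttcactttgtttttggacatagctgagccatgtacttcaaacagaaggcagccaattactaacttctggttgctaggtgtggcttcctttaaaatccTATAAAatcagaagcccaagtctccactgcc
SFN: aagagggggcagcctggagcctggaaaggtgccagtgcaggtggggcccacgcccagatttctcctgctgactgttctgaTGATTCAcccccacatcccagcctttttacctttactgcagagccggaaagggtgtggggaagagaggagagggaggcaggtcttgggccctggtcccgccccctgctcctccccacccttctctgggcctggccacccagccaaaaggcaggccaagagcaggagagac
S100A2: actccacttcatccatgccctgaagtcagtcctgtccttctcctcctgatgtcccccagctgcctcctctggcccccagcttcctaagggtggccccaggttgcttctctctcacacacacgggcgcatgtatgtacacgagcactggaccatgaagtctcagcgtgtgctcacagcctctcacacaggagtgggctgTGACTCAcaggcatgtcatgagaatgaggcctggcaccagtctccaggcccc
IVL: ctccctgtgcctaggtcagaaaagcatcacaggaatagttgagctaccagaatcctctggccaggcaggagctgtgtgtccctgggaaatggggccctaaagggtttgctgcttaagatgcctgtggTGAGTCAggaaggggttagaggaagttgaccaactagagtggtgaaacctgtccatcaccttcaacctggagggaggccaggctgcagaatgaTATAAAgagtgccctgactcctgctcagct
SPRR1B: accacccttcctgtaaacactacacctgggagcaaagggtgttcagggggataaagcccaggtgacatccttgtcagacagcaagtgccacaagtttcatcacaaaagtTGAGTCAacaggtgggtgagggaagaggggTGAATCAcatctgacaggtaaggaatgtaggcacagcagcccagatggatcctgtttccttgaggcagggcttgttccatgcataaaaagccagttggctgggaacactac

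In a search of both strands, AP-1 letters stood in 4 of the 7 members with an entry, against 6.57% of all 35116 promoters of this length in the table. SFN carried the motif 170 bases before its start, S100A2 52 bases before, IVL 123 bases before, and SPRR1B at both 141 and 111 bases before. ANXA1 had no such match but had a TATA box 31 bases before its start, and IVL had a TATA box 30 bases before. TATA letters stood in 10.7% of all promoters. The AP-1 letters were therefore present upstream of SFN, at 57.1 FPKM on average, and upstream of IVL and SPRR1B, listed at 0. The CCAAT box (CCAAT) was found upstream of ANXA1, SOX2 and TP63, and in 32.0% of all promoters. The SOX core (ACAAT), the ATF4 element (TTGCATCA) and paired heat shock half-sites (TTCNNGAA) had no match in the 7 members, against 24.6%, 0.772% and 6.62% of all promoters. S100A2 has a further promoter entry, which held no match to any of the 6 motifs. A member was counted if any of its entries matched, whereas the shares of all promoters are of single entries. A match is a run of letters and not evidence of binding.

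Across the whole series, the summed FPKM of protein-coding genes lay between 325877 and 357145 per library, and 10650 to 10987 genes reached 1 FPKM. The depth in reads is unknown, because whole reads could not be recovered from these values, so no counting interval is given. IFI6 averaged 312 ± 45 FPKM in OE_IFI6 and 24.7 ± 5.92 FPKM in OE_control, and the rise passed the test (limma on all genes, adjusted p = 4.73e-07). It averaged 14.6 ± 0.646 FPKM in sh_IFI6 and 23.4 ± 1.97 FPKM in sh_control, which did not pass the test after adjustment (limma, log2 fold change -0.64, unadjusted p = 0.00241, adjusted p = 0.818). The IFI6 libraries did not overlap there (13.9 to 15.1 FPKM in sh_IFI6 and 21.2 to 24.9 FPKM in sh_control), as for 19.1% of all genes tested. The OE_control libraries stood apart on the first principal component (23.1% of the variance), at -30.6 to -22.2, while the other 9 libraries lay between 5.89 and 11.3. Differences against OE_control are therefore given beside the level of the same gene in sh_control, and whether that separation carries the difference was not tested.

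**Figure D1:**
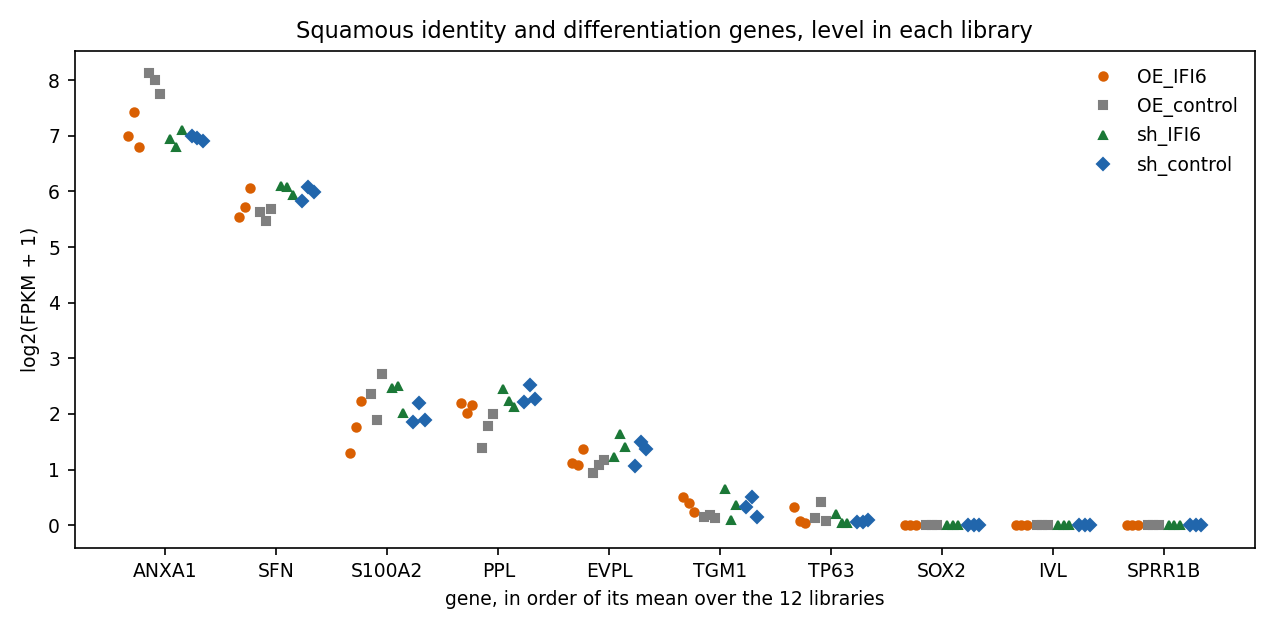
Level of each of the 10 genes in each library, as log2(FPKM + 1), by group (3 libraries each), with genes in order of their mean over the 12 libraries. ANXA1 averages 158 FPKM and SFN 57.1 FPKM, and SOX2, IVL and SPRR1B lie at 0 in every library.

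The label of the line was checked against marker genes. Of 16 markers of squamous epithelium, 5 had a mean of at least 1 FPKM, led by TRIM29 at 51.7 FPKM. The basal and activated squamous keratins KRT5, KRT6A and KRT6B were listed at 0 in every library, KRT14 reached at most 0.0182 FPKM, and the desmosomal cadherins DSG3 and DSC3 at most 0.0229 and 0.0103 FPKM. The simple-epithelial keratins KRT8 and KRT18 averaged 930.3 and 439 FPKM, and vimentin (VIM) averaged 495 FPKM. Of 13 fibroblast or mesenchyme markers, 9 reached a mean of 1 FPKM, and after VIM the highest was SNAI2 at 7.24 FPKM. Of 16 markers of columnar or intestinal epithelium, GATA6 alone reached a mean of 1 FPKM (2.35 FPKM). Of 9 general epithelial markers, 4 reached a mean of 1 FPKM: KRT8, KRT18, KRT7 (77.0 FPKM) and CLDN7 (25.9 FPKM). CDH1 (E-cadherin) reached at most 0.171 FPKM and EPCAM was listed at 0 throughout. CLDN4 and ESRP1 averaged 0.634 and 0.00733 FPKM. KRT19, another keratin of simple epithelium, averaged 0.375 FPKM. The markers of each kind were therefore mixed: KRT8, KRT18 and KRT7 were abundant and KRT19 was not, and KRT5, KRT6A, KRT6B, KRT14, DSG3 and DSC3 were at or near 0 while the other squamous markers that reached 1 FPKM, ITGA6, DSC2, KRT15 and KRT17, averaged 14.1, 3.23, 2.33 and 1.51 FPKM.

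The basal regulators come first in the order of roles. TP63 encodes p63, required for stratified epithelia, on chromosome 3. It measured 0.258, 0.0599 and 0.0259 FPKM in OE_IFI6, and 0.10, 0.332 and 0.0588 FPKM in OE_control. It measured 0.155, 0.0328 and 0.0270 FPKM in sh_IFI6, and 0.0467, 0.0457 and 0.0706 FPKM in sh_control. The groups overlapped in both pairs, single libraries within a group differed more than the group means, and TP63 was higher than 35.3% of protein-coding genes. Two-sided exact permutation tests, whose smallest possible p with 3 against 3 is 0.1, gave p = 0.6 for OE_IFI6 against OE_control and p = 1 for sh_IFI6 against sh_control, and 28 such tests over the members and comparisons gave no adjusted p below 0.4.

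TP63 makes full-length proteins from an upstream start and N-terminally truncated (delta-N) proteins, the main basal form, from an internal start. All 7 coding transcripts with the internal start (chromosome 3, starts between 189789660 and 189789801) were listed at 0 in every library. The 5 coding transcripts with the full-length start (starts between 189631389 and 189631516) summed to a mean of 0.0573 FPKM. TP63-201 was above 0 in all 12 libraries, at 0.0174 to 0.10 FPKM. A further assembled transcript from position 189566785 appeared in 4 libraries, and it made up most of TP63 in OE_IFI6 replicate 1 (0.186 FPKM) and OE_control replicate 2 (0.236 FPKM), the libraries in which the gene was highest. The traces of TP63 therefore lay on the full-length start and on this assembled transcript, not on the coding delta-N transcripts, and a non-coding transcript with the internal start reached 0.0297 FPKM in 1 library.

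SOX2, the factor that acts with p63 in basal oesophageal cells and is amplified in many squamous tumours, was listed at 0 in all 12 libraries. Its gene (chromosome 3, 181711925 to 181714436) lies within the long non-coding gene SOX2-OT, which was measured at 0.158 to 0.634 FPKM. SOX2-OT averaged 0.464 ± 0.154 FPKM in OE_IFI6 and 0.246 ± 0.0859 FPKM in OE_control, and 0.371 ± 0.0446 FPKM in sh_IFI6 and 0.447 ± 0.0221 FPKM in sh_control (SD, n = 3 each), with no test. The host locus thus gave values in every library while SOX2 itself gave none. Other SOX genes were present at low levels, with 4 of 18 tested: SOX13 averaged 8.30 FPKM, SOX4 7.52 FPKM and SOX12 5.85 FPKM. None of the 4 was called by limma in the 5 comparisons, and in both IFI6 comparisons 0 had an unadjusted p under 0.05.

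ANXA1 encodes annexin A1, a calcium-dependent phospholipid-binding protein of the annexin family that is known for limiting inflammation and is often lost in oesophageal squamous tumours. It was the highest of the 10 genes in every group, above 98.4% of protein-coding genes, at chromosome 9, 73151865 to 73170393. ANXA1 measured 126, 171 and 110.0 FPKM in OE_IFI6, and 277, 255 and 213 FPKM in OE_control. All OE_IFI6 libraries lay below all OE_control libraries. It measured 121, 111 and 137 FPKM in sh_IFI6, and 127, 123 and 119 FPKM in sh_control. Those groups overlapped, and OE_IFI6 replicate 2 lay above every library of both.

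ANXA1 fell in OE_IFI6 relative to OE_control by 0.88 on the log2(FPKM + 1) scale (SE 0.16, limma, adjusted p = 0.00637, Benjamini-Hochberg over the 10925 genes tested). In sh_IFI6 against sh_control the log2 fold change was -0.0029 (SE 0.16, 95% interval -0.35 to 0.34, adjusted p = 0.996). OE_control exceeded sh_control by 1.0 (SE 0.16, adjusted p = 0.00340), whereas OE_IFI6 against sh_control gave 0.12 (95% interval -0.22 to 0.46, adjusted p = 0.999). These comparisons share control libraries, and OE_control was the group that lay apart from the other 3. The difference between the overexpression and the interference effect was -0.88 (SE 0.22, limma, adjusted p = 0.0620), short of the threshold. The fall held without each library in turn (log2 fold change -1.06 to -0.74) but missed the threshold when only the OE_IFI6 and OE_control libraries were fitted (adjusted p = 0.0644). In bulk RNA, fewer cells that make a transcript and less of it per cell cannot be told apart.

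ANXA1 was the 1 member called among 5 tested in OE_IFI6 against OE_control, where 7.66% of all genes tested were called. In sh_IFI6 against sh_control no member was called, against 0% of all genes: limma called none of 10925 there, and 563 had an unadjusted p under 0.05, none of them a member. The difference between the effects called no member (2 at an unadjusted p under 0.05), against 2.69% of all genes, and OE_IFI6 against sh_control called none (0 at an unadjusted p under 0.05), against 0.0183%. OE_control against sh_control called 2 members, ANXA1 higher and PPL lower, against 7.52% of all genes. With 5 members tested, these counts are too small to set the members apart from the rest. The median log2 fold change of the 5 members was 0.12 in OE_IFI6 against OE_control and 0.071 in sh_IFI6 against sh_control, against 0.046 and 0.0048 over all genes. In OE_control against sh_control it was -0.25, against -0.087 over all genes.

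**Figure D2:**
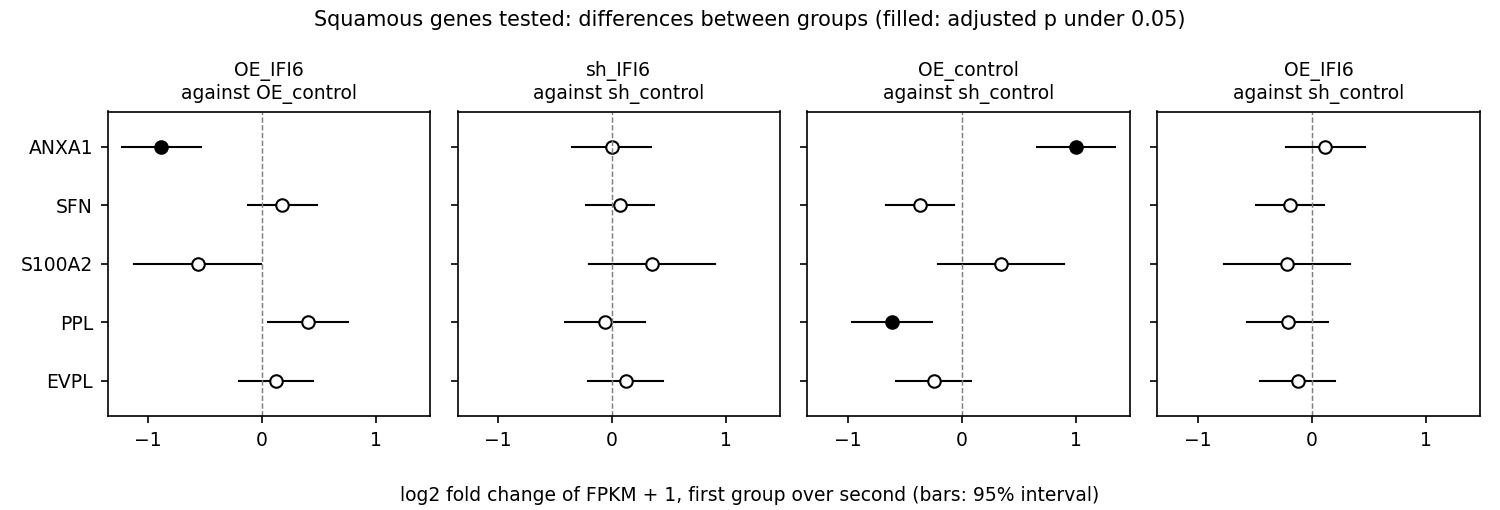
Log2 fold change of FPKM + 1 with its 95% interval for the 5 genes tested, in 4 comparisons of the same fit, with filled points for an adjusted p under 0.05. ANXA1 stands at -0.88 in OE_IFI6 against OE_control and at 1.0 in OE_control against sh_control, and near 0 in the other comparisons.

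The fall of ANXA1 lay on its main transcript. ANXA1-201, which holds 89.2% of the summed transcript level, averaged 115 ± 33.2 FPKM in OE_IFI6 and 228 ± 30.4 FPKM in OE_control (log2 fold change -1.01, SE 0.19, limma over 17030 transcripts, adjusted p = 0.0353). At the transcript level 1.73% of those tested were called in this comparison. ANXA1-202, which starts downstream at position 73157654, averaged 10.7 ± 1.51 FPKM in OE_IFI6 and 6.54 ± 2.40 FPKM in OE_control, which did not pass the test (log2 fold change 0.67, adjusted p = 0.328). These 2 transcripts therefore pointed in opposite directions, of which only that of ANXA1-201 was called. The share of ANXA1-201 in the gene was 77.3% to 88.2% in OE_IFI6 and 87.8% to 93.8% in OE_control, which overlapped (exact permutation p = 0.2).

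The 3 genes whose levels followed ANXA1 most closely over the 12 libraries were IFIT1, an interferon-induced gene (Pearson r = 0.991), PAQR5, a membrane progestin receptor (r = 0.961), and NFIL3, a transcriptional repressor (r = 0.960). The points share libraries, and OE_control was the highest group for all 3. NFIL3 averaged 20.2 FPKM in OE_IFI6 and 36.2 FPKM in OE_control, and 19.2 FPKM in sh_IFI6 and 20.3 FPKM in sh_control. PAQR5 averaged 13.4 FPKM in OE_IFI6 and 18.7 FPKM in OE_control, and 13 FPKM in sh_IFI6 and 13.8 FPKM in sh_control. IFIT1 averaged 3.65 FPKM in OE_IFI6 and 5.62 FPKM in OE_control, and 3.4 FPKM in sh_IFI6 and 3.42 FPKM in sh_control. NFIL3 fell in OE_IFI6 against OE_control by 0.81 (adjusted p = 0.000799), PAQR5 by 0.45 (adjusted p = 0.0172) and IFIT1 by 0.52 (adjusted p = 0.0333), all on the log2 scale with limma. The 3 were picked for following ANXA1 over these same libraries, so their calls describe their levels and add no support to its fall. The call of IFIT1 was kept in 9 of 20 alternative settings and lost without any 1 library except OE_IFI6 replicate 2 and sh_control replicate 1 (adjusted p up to 0.0931), that of PAQR5 was kept in 20 of 21 and that of NFIL3 in all 21.

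**Figure D3:**
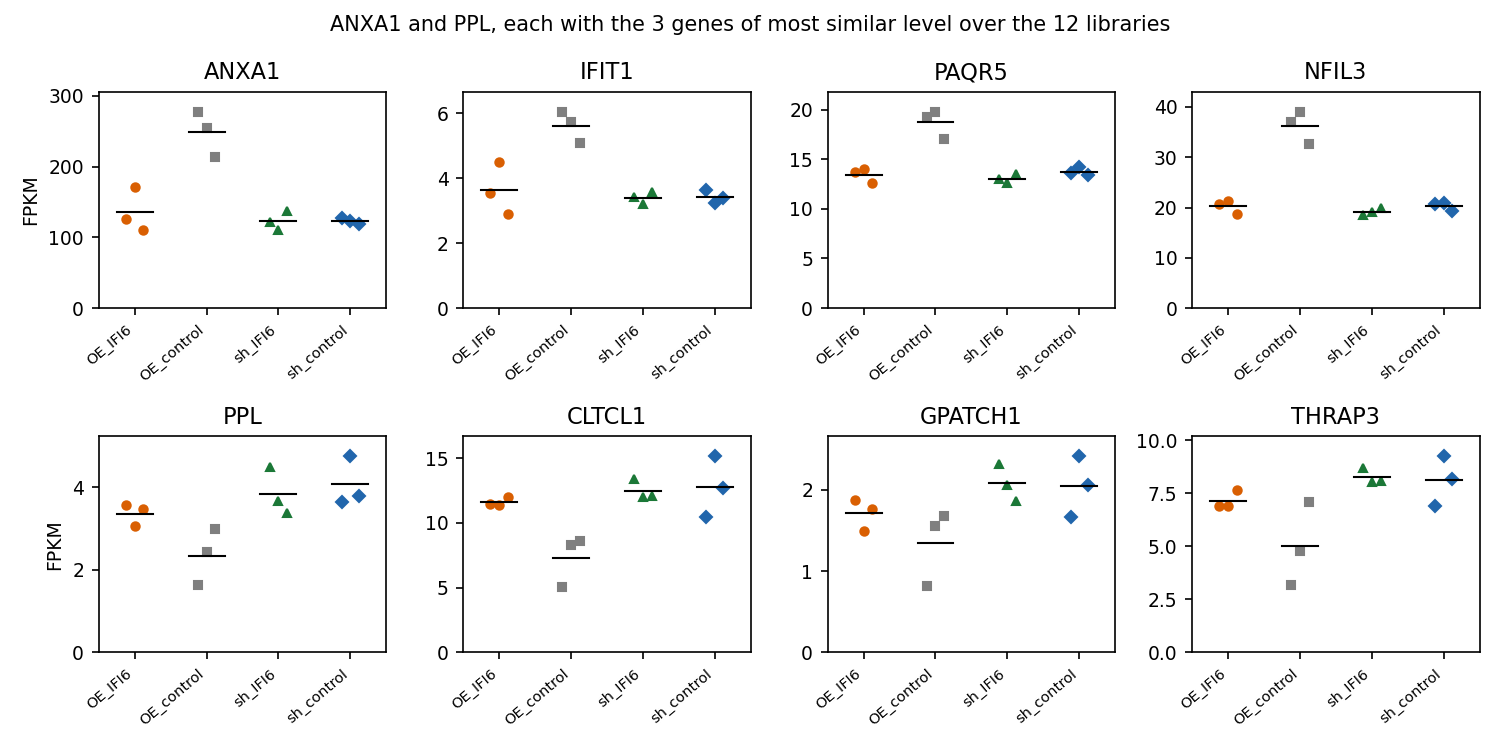
FPKM in each library of ANXA1 and PPL, each beside the 3 tested genes with the most similar level over the 12 libraries (lines are group means of 3). OE_control is the highest group for ANXA1, IFIT1, PAQR5 and NFIL3 and the lowest for PPL, CLTCL1, GPATCH1 and THRAP3.

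The other annexins gave a mixed picture. Of 12, 10 were tested, and in OE_IFI6 against OE_control 2 rose and 2 fell, where 7.66% of all genes tested were called. The median log2 fold change of the 10 was 0.038, against 0.046 over all genes. ANXA3 fell (5.91 ± 0.420 FPKM in OE_IFI6 and 9.87 ± 1.49 FPKM in OE_control, against 6.12 ± 0.392 FPKM in sh_control, adjusted p = 0.0147). ANXA7 fell (65.5 ± 16.1 FPKM in OE_IFI6 and 98.1 ± 3.18 FPKM in OE_control, against 74.9 ± 10.3 FPKM in sh_control, log2 fold change -0.60, adjusted p = 0.0419, a call lost without any 1 library except OE_IFI6 replicate 3 and sh_control replicate 1, adjusted p up to 0.126). ANXA8 and ANXA8L1 rose by 0.74 and 0.57 (adjusted p = 0.00841 and 0.0290), and the call of ANXA8L1 was lost without OE_IFI6 replicate 2 or 3 or OE_control replicate 1 or 2 (adjusted p up to 0.0858). ANXA8 averaged 4.93 ± 1.03 FPKM in OE_IFI6 and 2.51 ± 0.356 FPKM in OE_control, against 4.14 ± 0.376 FPKM in sh_control. ANXA8L1 averaged 5.45 ± 0.719 FPKM in OE_IFI6 and 3.35 ± 0.585 FPKM in OE_control, against 5.85 ± 0.414 FPKM in sh_control. ANXA8 and ANXA8L1 are near-identical copies whose reads cannot be assigned with certainty. In OE_control against sh_control, where 7.52% of all genes tested were called, ANXA3 was higher and ANXA8 and ANXA8L1 were lower, calls that depended on 3 to 8 single libraries (adjusted p up to 0.12). In sh_IFI6 against sh_control limma called none of the 10 (0 at an unadjusted p under 0.05).

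SFN encodes 14-3-3 sigma, an epithelial cell cycle checkpoint protein. It was the second most abundant of the 10 genes in every group, above 95.1% of protein-coding genes, and had a single transcript in the files (chromosome 1, 26863149 to 26864456). SFN measured 45.7, 51.5 and 66.1 FPKM in OE_IFI6, and 48.8, 43.1 and 50.6 FPKM in OE_control. It measured 67.8, 66.4 and 60.1 FPKM in sh_IFI6, and 55.7, 67.0 and 62.3 FPKM in sh_control. Within each pair the libraries overlapped, and the OE_control libraries all lay below the sh_control libraries. The log2 fold change was 0.18 in OE_IFI6 against OE_control (95% interval -0.12 to 0.48, limma, adjusted p = 0.475) and 0.071 in sh_IFI6 against sh_control (-0.23 to 0.37, adjusted p = 0.932). It was -0.37 in OE_control against sh_control, which missed the threshold (adjusted p = 0.125). SFN was the steadiest of the members above 0, with a coefficient of variation of 15.7% over the 12 libraries, against 37.2% for ANXA1 and 33.7% for S100A2. The 6 other 14-3-3 genes were all tested and none was called by limma in any comparison (0 at an unadjusted p under 0.05 in both IFI6 comparisons), with YWHAQ at 349.7 FPKM, YWHAZ at 307 FPKM and YWHAE at 204 FPKM on average.

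S100A2, a calcium-binding protein of basal keratinocytes and a known p53 and p63 target (chromosome 1, 153561108 to 153568707), was scarce here. It measured 1.46, 2.38 and 3.68 FPKM in OE_IFI6, and 4.16, 2.73 and 5.54 FPKM in OE_control. It measured 4.51, 4.68 and 3.05 FPKM in sh_IFI6, and 2.61, 3.59 and 2.69 FPKM in sh_control. The groups overlapped in both pairs, and OE_IFI6 replicate 1 was the lowest of the 12 libraries. The log2 fold change was -0.56 in OE_IFI6 against OE_control (SE 0.25, 95% interval -1.12 to -0.012, limma, adjusted p = 0.203) and 0.35 in sh_IFI6 against sh_control (SE 0.25, adjusted p = 0.825). The difference between the effects was -0.91 (SE 0.36, adjusted p = 0.193). Its level was split over 9 transcripts above 0 of 11, of which S100A2-202 held 33.9% and S100A2-207 29.7%, and neither was called in OE_IFI6 against OE_control.

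Several other S100 genes were far more abundant. S100A6 averaged 1720.4 FPKM, S100A4 502 FPKM and S100A10 169.5 FPKM, and none of the 10 tested was called by limma in any comparison (0 at an unadjusted p under 0.05 in both IFI6 comparisons). The median log2 fold change of the 10 was 0.068 in OE_IFI6 against OE_control and 0.0081 in sh_IFI6 against sh_control.

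Both precursors of the cornified envelope among the members were listed at 0. IVL (involucrin, chromosome 1, 152908546 to 152911886) and SPRR1B (small proline-rich protein 1B, chromosome 1, 153031203 to 153032900) lie in the epidermal differentiation complex, and the single transcript of each was listed at 0 in all 12. Of 34 other genes of the envelope and that complex, 26 were likewise at 0 in every library, among them the filaggrin gene FLG, the small proline-rich gene SPRR3 and the oesophageal gene CRNN. The 3 that were tested were LYPD3 (mean 11.4 FPKM), CLIC3 (3.59 FPKM) and PI3 (1.13 FPKM), and none was called by limma in the 5 comparisons (1 had an unadjusted p under 0.05 in OE_IFI6 against OE_control, and 0 in sh_IFI6 against sh_control).

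Envoplakin and periplakin, the plakins that form the scaffold of the envelope, were both measured at low levels. PPL (chromosome 16, 4882507 to 4960741) measured 3.56, 3.05 and 3.46 FPKM in OE_IFI6, and 1.62, 2.43 and 2.98 FPKM in OE_control. It measured 4.49, 3.68 and 3.38 FPKM in sh_IFI6, and 3.65, 4.76 and 3.79 FPKM in sh_control. OE_control was the lowest group, each of its libraries lying below every library of the other 3 groups. The log2 fold change was 0.40 in OE_IFI6 against OE_control (SE 0.16, limma, adjusted p = 0.157) and -0.063 in sh_IFI6 against sh_control (95% interval -0.41 to 0.29, adjusted p = 0.956). PPL was lower in OE_control than in sh_control, by -0.61 (SE 0.16, adjusted p = 0.0392), and this call was lost under both other scalings and without OE_control replicate 1 or 2, sh_IFI6 replicate 2 or 3, or any sh_control library (adjusted p 0.0524 to 0.150). In OE_IFI6 against sh_control it was -0.21 (adjusted p = 0.999), although the libraries did not overlap.

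The genes most like PPL over the 12 libraries were CLTCL1, a clathrin heavy chain (r = 0.955), GPATCH1, a splicing-associated protein (r = 0.953), and THRAP3, an RNA-processing factor (r = 0.949). CLTCL1 averaged 11.6 FPKM in OE_IFI6 and 7.33 FPKM in OE_control, and 12.5 FPKM in sh_IFI6 and 12.8 FPKM in sh_control. None of the 3 passed the test in OE_IFI6 against OE_control, and CLTCL1 was lower in OE_control than in sh_control by -0.74 (adjusted p = 0.0272), a call that was lost without OE_control replicate 1 or sh_control replicate 2 or 3 (adjusted p 0.0653 to 0.110). CLTCL1 was picked for following PPL over the same libraries, so its call only describes these levels.

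Counted by libraries that do not overlap, 2 of the 5 tested members (ANXA1 and PPL) were separated in OE_IFI6 against OE_control, where 23.3% of all genes tested were. In sh_IFI6 against sh_control 0 of 5 were, against 19.1%. In OE_control against sh_control 3 of 5 (ANXA1, SFN and PPL) were, against 30.4%, and in OE_IFI6 against sh_control 1 of 5 (PPL) was, against 9.54%.

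EVPL (chromosome 17, 76001627 to 76027452) measured 1.17, 1.11 and 1.57 FPKM in OE_IFI6, and 0.914, 1.11 and 1.26 FPKM in OE_control. It measured 1.35, 2.13 and 1.65 FPKM in sh_IFI6, and 1.1, 1.82 and 1.57 FPKM in sh_control. The libraries overlapped within each pair, and no comparison was called (log2 fold change 0.12 in OE_IFI6 against OE_control, adjusted p = 0.684, and 0.12 in sh_IFI6 against sh_control, adjusted p = 0.888, limma). Within the gene, the split between transcripts differed between groups more than the total did. EVPL-201 held 61.1% of the gene in sh_IFI6 (46.5% to 68.8%) and 30.5% in sh_control (29.6% to 31.0%), with no overlap. The exact permutation p was 0.1, the smallest that 3 against 3 allow, and 0.64 after adjustment over 16 such tests. EVPL-203, of almost the same extent but not among the authors' coding transcripts, held 5.71% in sh_IFI6 and 45.9% in sh_control, and its libraries lay between 2.03% and 7.58% in sh_IFI6 and between 40.4% and 54.0% in sh_control. In OE_IFI6 the share of EVPL-201 spread from 24.3% to 74.7%, and in OE_control it lay between 64.2% and 74.4%. These shares rest on transcripts near 1 FPKM or below. An assembled EVPL transcript (76001627 to 76005979) lies inside CDK3, annotated on the opposite strand, and the labels do not say whether counting used strand, so reads of the overlap cannot be told apart.

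**Figure D4:**
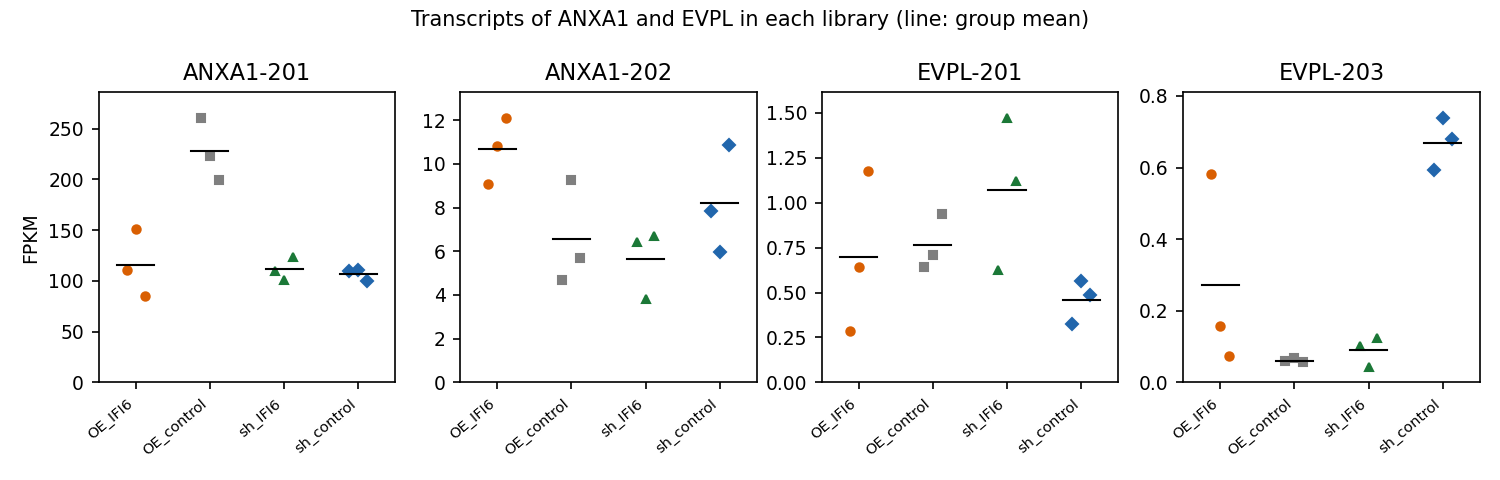
FPKM of ANXA1-201, ANXA1-202, EVPL-201 and EVPL-203 in each library, by group, with group means of 3 as lines. ANXA1-201 averages 115 FPKM in OE_IFI6 and 228 FPKM in OE_control, and EVPL-203 holds 5.71% of its gene in sh_IFI6 and 45.9% in sh_control.

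The other 5 plakins were all tested, and 1 was called in OE_IFI6 against OE_control, where 7.66% of all genes tested were called. DSP, desmoplakin of the desmosome, rose in OE_IFI6 against OE_control by 0.65 on the log2 scale (46.4 ± 8.81 FPKM in OE_IFI6 and 28.9 ± 1.09 FPKM in OE_control, limma, adjusted p = 0.0152), a call lost when only those 6 libraries were fitted (adjusted p = 0.103). With only those libraries fitted, the calls of every other annexin, transcription factor, protease or ANXA1-like gene named here as called in this comparison were lost too (adjusted p 0.0884 to 0.218), except that of NFIL3. DSP averaged 33.1 ± 4.96 FPKM in sh_IFI6 and 45.3 ± 0.102 FPKM in sh_control, which did not pass the test (log2 fold change -0.45, adjusted p = 0.818). DSP was lower in OE_control than in sh_control by -0.63 (adjusted p = 0.0179), and this call was lost under median-of-ratios scaling and without OE_control replicate 1 or 3 or any sh_control library (adjusted p up to 0.0648). PLEC, DST, MACF1 and EPPK1 were not called in any comparison.

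TGM1, the membrane-bound transglutaminase that cross-links the envelope (chromosome 14, 24249114 to 24264432), was below the minimum for testing. It measured 0.415, 0.323 and 0.180 FPKM in OE_IFI6, and 0.102, 0.130 and 0.0931 FPKM in OE_control. It measured 0.573, 0.0711 and 0.282 FPKM in sh_IFI6, and 0.260, 0.430 and 0.109 FPKM in sh_control. The OE_IFI6 libraries all lay above the OE_control libraries (exact permutation p = 0.1, adjusted 0.4), while the other pair overlapped widely. With no filter on low values, limma gave a log2 fold change of 0.23 for OE_IFI6 against OE_control (adjusted p = 0.517), and the pseudocount of 1 FPKM understates a change at this level. Of 7 other transglutaminases, 5 were at 0 in every library, TGM2 averaged 0.0307 FPKM and TGM4 0.0175 FPKM.

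The upper and lower ends of the order were shared by all groups. ANXA1 stood above SFN, and SFN above the remaining genes, with no overlap in any group, and EVPL stood above TGM1 and TP63 without overlap. PPL and S100A2 overlapped in OE_IFI6, OE_control and sh_IFI6, and PPL lay above S100A2 without overlap in sh_control. The ratio of mean ANXA1 to mean SFN was 2.50 in OE_IFI6 and 5.23 in OE_control, and 1.90 in sh_IFI6 and 1.99 in sh_control.

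Regulators and target lists around the members were read for context. Of 24 squamous transcription factors, 11 were tested, with a median log2 fold change of -0.16 in OE_IFI6 against OE_control, against 0.046 over all genes. Of these 11, 1 rose and 2 fell, while 7.66% of all genes tested were called. ELF3, an epithelial ETS factor, fell (56.8 ± 9.18 FPKM in OE_IFI6 and 78.3 ± 0.866 FPKM in OE_control, against 59.1 ± 1.43 FPKM in sh_control, adjusted p = 0.0271), and KLF4, a differentiation factor, fell (14.5 ± 0.570 FPKM in OE_IFI6 and 19.8 ± 1.12 FPKM in OE_control, against 16.6 ± 1.04 FPKM in sh_control, adjusted p = 0.0289). TFAP2A, which acts early in keratinocyte fate, rose by 0.54 (16.3 ± 3.17 FPKM in OE_IFI6 and 10.8 ± 0.977 FPKM in OE_control, against 20.5 ± 2.02 FPKM in sh_control, adjusted p = 0.0437). The call of TFAP2A was kept in 5 of 21 alternative settings. It was lost with no filter on low values, under both other scalings, with the replicate block and with only the 6 libraries compared (adjusted p up to 0.172), and without any 1 library except OE_IFI6 replicate 2 (up to 0.130). The call of ELF3 was lost without OE_IFI6 replicate 1 or 2 or any OE_control library (up to 0.0839), and that of KLF4 without any OE_IFI6 library or OE_control replicate 1 or 3 (up to 0.0783). TFAP2A was lower in OE_control than in sh_control by -0.87 (adjusted p = 0.00512), a call kept in all 21. limma called no factor in sh_IFI6 against sh_control (2 had an unadjusted p under 0.05).

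Of a list of p63 targets in keratinocytes, PERP, a desmosomal protein, was the most abundant at 74.0 FPKM, while TP63 itself was near 0. Of 19 proteases and inhibitors of squamous epithelium 5 were tested, and in OE_IFI6 against OE_control 1 rose and 1 fell, where 7.66% of all genes tested were called. ST14, matriptase, rose by 0.49 (3.57 ± 0.180 FPKM in OE_IFI6 and 2.27 ± 0.189 FPKM in OE_control, adjusted p = 0.0296, lost without any OE_IFI6 library or OE_control replicate 1 or 3, up to 0.0801). LGMN, legumain, fell by 0.45 (32.0 ± 4.83 FPKM in OE_IFI6 and 44.0 ± 4.23 FPKM in OE_control, against 35.9 ± 1.43 FPKM in sh_control, adjusted p = 0.0415, lost without any 1 library except OE_IFI6 replicate 1 and OE_control replicate 2, up to 0.124). ST14 averaged 3.43 ± 0.306 FPKM in sh_control, and it was lower in OE_control than in sh_control by -0.44 (adjusted p = 0.0447), a call lost under both other scalings and without 10 of the 12 libraries in turn (adjusted p up to 0.188). Of 18 Notch pathway genes 14 were tested and none was called by limma in any comparison (2 at an unadjusted p under 0.05 in each IFI6 comparison), with NOTCH2 at 31.6 FPKM, HES1 at 30.0 FPKM and HES4 at 25.7 FPKM.

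**Figure D5:**
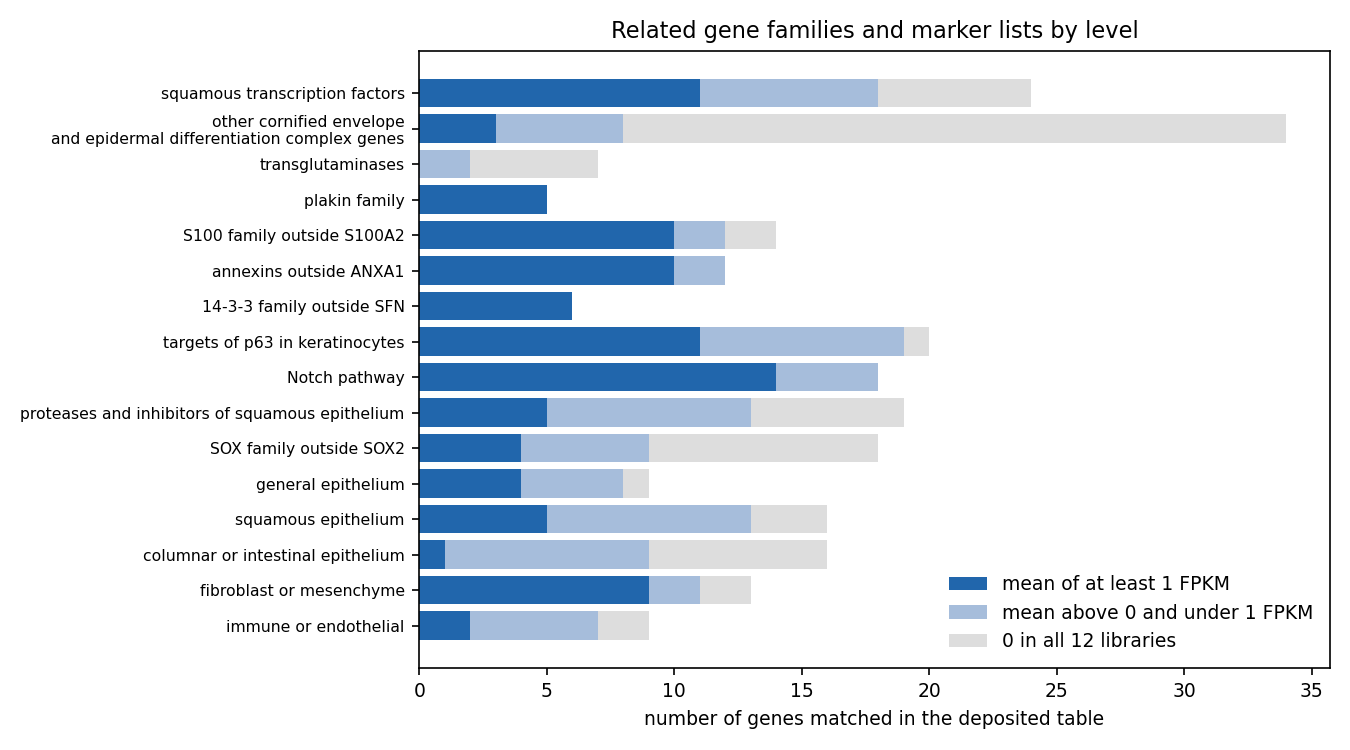
Number of genes in each family or marker list with a mean of at least 1 FPKM, a mean between 0 and 1 FPKM, or 0 in all 12 libraries. Of the 34 other cornified envelope genes 26 are at 0 and 3 reach 1 FPKM, whereas all 5 other plakins and all 6 other 14-3-3 genes reach it.

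Of the 5 squamous markers tested, KRT17, a keratin of activated keratinocytes, was the 1 called in OE_IFI6 against OE_control, where 7.66% of all genes tested were called, and it fell. It averaged 0.724 ± 0.391 FPKM in OE_IFI6 and 3.65 ± 0.765 FPKM in OE_control (log2 fold change -1.44, limma, adjusted p = 0.00117), and 0.968 ± 0.409 FPKM in sh_IFI6 and 0.693 ± 0.10 FPKM in sh_control (adjusted p = 0.850). Like ANXA1, KRT17 was highest in OE_control. Only that group had a mean of at least 1 FPKM, so KRT17 reached the minimum for testing through the group where it is high. Its call therefore only describes these levels. TRIM29 was lower in OE_control than in sh_control by -0.41 (adjusted p = 0.0437), a call lost without 9 of the 12 libraries in turn (adjusted p up to 0.153). No tested gene of the general epithelial, columnar, mesenchymal and immune or endothelial marker lists was called by limma in OE_IFI6 against OE_control, where 1, 0, 0 and 2 of them had an unadjusted p under 0.05. The summed level of the 16 squamous markers was 66.7 to 77.9 FPKM in OE_IFI6 and 62.7 to 70.6 FPKM in OE_control, and 78.9 to 85.3 FPKM in sh_IFI6 and 68.8 to 77.7 FPKM in sh_control. Most of this sum was TRIM29 and ITGA6, at 51.7 and 14.1 FPKM over the 12 libraries. TRIM29 averaged 62.7 ± 1.92 FPKM in sh_IFI6 and 53.3 ± 2.61 FPKM in sh_control, where limma called no squamous marker. The summed level of the 16 columnar markers was 0.908 to 2.84 FPKM in OE_IFI6 and 1.90 to 2.91 FPKM in OE_control. It was 2.20 to 3.09 FPKM in sh_IFI6 and 2.95 to 3.46 FPKM in sh_control, most of it GATA6 at 2.35 FPKM on average. The sum of 9 immune or endothelial markers was 1.54 to 1.99 FPKM in OE_IFI6 and 2.53 to 3.28 FPKM in OE_control. In sh_IFI6 that sum was 1.78 to 3.16 FPKM and in sh_control 1.83 to 2.15 FPKM, and 2 of the 9 had a mean of at least 1 FPKM. The 13 fibroblast or mesenchyme markers summed to 381 to 557 FPKM in OE_IFI6 and 401 to 680.1 FPKM in OE_control. They summed to 421 to 690 FPKM in sh_IFI6 and 477 to 679 FPKM in sh_control, nearly all of it VIM. The part of these lists in the differences was not tested.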

How the data were processed

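The authors deposited FPKM values per library for genes and transcripts. HISAT2, StringTie, Cuffdiff and edgeR are named in the submitters' processing notes, with no version or role, and no source used here gives the genome build, annotation release or use of strand. The deposited gene bounds of 5 of the 7 members with a RefSeq promoter entry on GRCh38 equalled that entry's transcription start. From these FPKM values, log2(FPKM + 1) was fitted for the 10925 protein-coding genes that averaged 1 FPKM or more using limma 3.58.1 (R 4.3.3, group means of all 12 libraries, trended variance, 8 residual degrees of freedom), and p-values were adjusted over all genes by the Benjamini-Hochberg method at a threshold of 0.05. Transcripts were fitted likewise. The code was tested on simulated data. Count tests were not run, because whole reads could not be recovered: 11.7% to 31.5% of low values in a library lay within 5% of a whole step. Single values were compared by two-sided exact permutation tests. Alternatives were another pseudocount (0.1), filters (none, 5 FPKM), scalings (median of ratios, quantile), the table of all annotated genes, limma without the trend, the compared libraries alone, a replicate block and leaving out each library. All 10 members are named, IFI6, the 3 genes most like a called member (Pearson correlation), and from each related list up to 4 called genes or otherwise the 3 most abundant. Marker genes are named beyond this rule as a check of the line. The members and lists were chosen with earlier results of these data known. No 2 libraries held identical values. Promoter sequences came from RefSeq, with 7 members matched. The result of 1 gene of a related list is not reported here.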

Additional observations from a re-analysis of the deposited data

Results flagged for a closer look

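Apart from IFI6 itself, the effects of overexpression (OE_IFI6 against OE_control) and of interference (sh_IFI6 against sh_control) differed for 4 named genes. The test was of the difference itself, the contrast of both effects in the limma fit over 10925 genes, of which 2.69% were called. IFI6 gave a difference of 4.27 there (adjusted p = 3.77e-06). None of the 4 is among the 10 squamous genes. KRT17 gave a difference of -1.64 (adjusted p = 0.00970), from effects of -1.44 and 0.20. It reached the minimum of 1 FPKM for testing only through OE_control, so its difference only describes these levels. DSP gave a difference of 1.1 (adjusted p = 0.0136), from effects of 0.65 and -0.45. TFAP2A gave a difference of 1.08 (adjusted p = 0.0188), from effects of 0.54 and -0.54, and NFIL3 gave -0.73 (adjusted p = 0.0215), from effects of -0.81 and -0.076. NFIL3 was picked for following ANXA1 over the same libraries, so its difference also only describes these levels. The differences of KRT17 and DSP kept their call in all 19 and 20 settings, that of TFAP2A in 16 of 20 (lost without sh_IFI6 replicate 1 or 3 and without sh_control replicate 1 or 3, highest adjusted p 0.0575) and that of NFIL3 in 15 of 20 (lost without sh_IFI6 replicate 2 or 3 and without any sh_control library, highest adjusted p 0.0660). OE_control was the highest group for KRT17 and NFIL3, at 3.65 and 36.2 FPKM, and the lowest for DSP and TFAP2A, at 28.9 and 10.8 FPKM, and its part in the differences was not tested.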

How the results depend on the processing

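With only the 6 libraries of a pair fitted, members called came to 0 in OE_IFI6 against OE_control (167 of all genes, against 837) and 1 in OE_control against sh_control (429 of all genes, against 822), and all genes called to 1 in sh_IFI6 against sh_control and 5 in OE_IFI6 against sh_control. Members called in OE_control against sh_control fell to 1, ANXA1, also with no filter (PPL adjusted p = 0.0778), a minimum of 5 FPKM (PPL not tested), median-of-ratios scaling (0.0561) and quantile normalization (0.0975). All genes called came to 1 in sh_IFI6 against sh_control with no filter, and in OE_IFI6 against sh_control to 1 at a minimum of 5 FPKM and 4 in the table of all annotated genes. EVPL turned sign in the difference between the effects under median-of-ratios scaling (-0.0159) and quantile normalization (-0.115), from 0.00303.

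Whether replicate numbers pair the libraries was not settled. Of 18 same-number pairs, 6 correlated over 0.1 (r -0.15 to 0.25, mean 0.033), against 5 of 36 other-number pairs (r -0.22 to 0.21, mean -0.017). Of the 12 libraries, 8 correlated best with their own number. The main fit left the numbers out. With the replicate block, members called were 1 in OE_control against sh_control (PPL adjusted p = 0.0629), and no other count of members changed.

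Leaving out each library, members called ranged from 1 to 1 in OE_IFI6 against OE_control, 0 to 0 in sh_IFI6 against sh_control and in OE_IFI6 against sh_control, 0 to 1 in the difference (ANXA1, -1.06, adjusted p = 0.0202, without OE_IFI6 replicate 2) and 1 to 2 in OE_control against sh_control. All genes called ranged from 505 to 860 in OE_IFI6 against OE_control, 0 to 1 in sh_IFI6 against sh_control, 124 to 518 in the difference, 321 to 934 in OE_control against sh_control and 2 to 5 in OE_IFI6 against sh_control. Uncalled values that turned sign were ANXA1 (-0.0814 to 0.0684), PPL (-0.156 to 0.0323) and EVPL (-0.00112 to 0.218) in sh_IFI6 against sh_control, SFN (-0.0378 to 0.224) and EVPL (-0.0951 to 0.124) in the difference, and S100A2 (-0.45 to 0.0142) and ANXA1 (-0.0583 to 0.259) in OE_IFI6 against sh_control. The call of PPL in OE_control against sh_control was lost without OE_control replicate 1 or 2, sh_IFI6 replicate 2 or 3, or any sh_control library (adjusted p up to 0.150). Scaling moved the split of all genes called: in OE_control against sh_control 36.5% were higher, against 57.3% with median-of-ratios scaling and 53.4% with quantile normalization. The causes were not tested. Read depth is unknown, so values near 0 carry no limit of detection.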
